A study of Mus musculus with 10 samples.

Results

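The genes of MHC class I antigen presentation were followed in RNA sequencing of supporting cells from the murine utricle, a balance organ of the inner ear. The 10 genes were chosen by their known function and matched by symbol, with earlier results of these libraries in view, and make up 10 of the 48709 genes in the deposited tables. They are the class I heavy chains H2-K1, H2-D1, H2-Q7 and H2-T23, their light chain B2m, the peptide transporter subunits Tap1 and Tap2 with the loading factor Tapbp, and the immunoproteasome subunits Psmb8 and Psmb9. The expected counts of these genes in all 10 libraries were in view when they were chosen, so their levels and differences are given as a description.

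Utricles of Lfng-EGFP mice at postnatal day 21 were cultured. Their Lfng-GFP+ cells, taken as supporting cells, were then sorted by the fluorescence of the EGFP reporter. The 3 libraries labelled DMSO d5 were cultured for 5 days with 0.1% DMSO, and the 3 labelled TRULI d5 for 5 days with 10 uM TRULI, an inhibitor of the Lats kinases of the Hippo pathway, in the same 0.1% DMSO. The 2 libraries labelled DMSO d10 and the 2 labelled TRULI d10 had the same 5 days followed by 5 days without any treatment. The sort depends on the reporter, the strain background of the mice is not given in the sources used here, and at least 2 biological replicates a condition are stated without saying which libraries share animals. P-values therefore measure only the spread between these libraries.

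For 4 of the 10 libraries the name under which the table was deposited gives another condition than the sample label. The libraries labelled TRULI d5 replicates 1 and 2 were deposited as DMSO d10 replicates 1 and 2, and those labelled DMSO d10 replicates 1 and 2 as TRULI d5 replicates 2 and 3. The library labelled TRULI d5 replicate 3 was deposited as TRULI d5 replicate 1, and the 3 DMSO d5 and 2 TRULI d10 libraries carry the same condition in both. Libraries were grouped by sample label, and each comparison is also given by deposited name. The mitochondrial ribosomal RNA mt-Rnr2 splits the libraries along the same lines. It took 1.45% to 2.53% of the counts in 4 libraries, those labelled TRULI d5 replicates 1 and 2 and TRULI d10, which by deposited name are the 4 d10 libraries. In the other 6 libraries it took 13% to 26.4%. The tables sum to 2463872 to 6255149 counts, so that 3 counts, the number used here as a floor, correspond to 0.479 to 1.16 CPM (a gene's counts scaled to a common library size, here the size after TMM normalization). These floors cover counting error only.

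The labelled cell type was checked against marker genes. The 11 supporting-cell markers summed to 14584 to 18618 CPM in DMSO d5, 8164 to 11001 in the libraries labelled TRULI d5, 8822 to 11462 in those labelled DMSO d10 and 9401 to 9473 CPM in TRULI d10. DMSO d5 thus lay above every other library under either grouping, and the part of this in the differences from DMSO d5 was not tested. The markers Otog, Epcam and Gjb2 lay at 2145 to 9964, 1378 to 5527 and 289 to 696 CPM, and Lfng itself at 21.6 to 104 CPM in the 4 libraries low in mt-Rnr2 and at 294 to 544 CPM in the other 6. Immune cells are rich in class I molecules, and 10 of 15 macrophage and leukocyte markers had at most 3 counts in every library. The pan-leukocyte gene Ptprc did not exceed 0.733 CPM, and Adgre1, Cx3cr1, C1qa, C1qb and C1qc were at 0 in all 10 libraries. The genes of this list with the highest levels were Cd14 (1.29 to 46.1 CPM) and Cd68 (0.907 to 18.6 CPM). The list summed to 3.71 to 9.64 CPM in DMSO d5 and was higher in every other library, at 10.3 to 15.6 CPM in those labelled TRULI d5 (10.3 to 17.7 by deposited name), 15.5 to 17.7 in those labelled DMSO d10 and 46.7 to 48.1 CPM in TRULI d10. Among the lymphocyte markers, Cd3d and Nkg7 were at 0 in all libraries, but Cd3e reached 17.2 CPM. The lymphocyte list summed to 0.964 to 1.55 CPM in DMSO d5, 2.39 to 17.2 in the libraries labelled TRULI d5, 0.227 to 1.91 in those labelled DMSO d10 and 0.834 to 2.72 CPM in TRULI d10, the highest sum being that of the library labelled TRULI d5 replicate 3. Of 7 class II presentation genes, H2-Aa, H2-Eb1, Cd74 and Ciita had at most 2 counts in any library. The other 3 were detected, H2-DMa at 3.54 to 25.7 CPM, H2-DMb1 at 1.63 to 6.42 and H2-Ab1 at 0.321 to 7.34 CPM. Hair-cell markers summed to 141 to 225 CPM in DMSO d5, 33 to 729 in the libraries labelled TRULI d5, 173 to 491 in those labelled DMSO d10 and 131 to 900 CPM in TRULI d10. By deposited name they summed to 173 to 729 CPM in TRULI d5 and 33 to 40.3 CPM in DMSO d10, below TRULI d10. Schwann-cell markers, at 62.8 to 134 CPM in TRULI d10 against 28.6 to 58.2 in DMSO d5, and melanocyte markers, at 0.417 to 7.44 against 8.68 to 11.4 CPM, did not overlap between these groups. Endothelial markers stayed at no more than 3.08 CPM, mesenchymal markers at 17.8 to 101 and neuronal markers at 0.733 to 69.4 CPM. The part of any of these cells in the members' levels was not tested. In these bulk samples fewer cells of a type and less RNA per cell cannot be told apart.

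Class I molecules display fragments of a cell's own proteins on its surface. The proteasome cuts the proteins, Tap1 and Tap2 together pump the peptides into the endoplasmic reticulum, tapasin, the product of Tapbp, holds the transporter next to an empty heavy chain, and B2m must pair with the heavy chain before the complex leaves for the surface. Interferon raises the whole set in most cells, in part by exchanging the constitutive proteasome subunits for Psmb8, Psmb9 and Psmb10, and the coactivator Nlrc5 acts at class I promoters.

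Of the 10 genes, 9 lie on chromosome 17 of GRCm38, in the major histocompatibility complex, and B2m lies on chromosome 2 at 122147686 to 122153083. H2-K1 is at 33996017 to 34000347 and Tapbp at 33915899 to 33929292, next to a compact block of 34335 bases that holds Psmb9, Tap1, Psmb8 and Tap2. Psmb9 (34181987 to 34187764, minus strand) and Tap1 (34187553 to 34197225, plus strand) overlap by 212 bases, and it is not given whether reads were counted by strand. Psmb8 (34197721 to 34201454) starts 495 bases after Tap1 ends and Tap2 is at 34203527 to 34216321. H2-D1 (35262730 to 35267499), H2-Q7 (35439155 to 35443773) and H2-T23 (36029773 to 36032855) follow farther along the chromosome. The reference build carries the alleles of 1 mouse strain, and class I genes are known to differ between strains.

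RefSeq promoters on GRCm38.p6, from 250 bases before to 50 bases after the start of transcription, were found for 9 of the 10 genes, all but Tap2. The stretches below are shown because H2-K1 and H2-D1, whose levels moved apart in these libraries, carry nearly the same control elements, and because B2m and H2-T23 carry other ones. Capitals mark enhancer A, GGGGATTCCC as H2-K1 has it, which binds NF-kB, and the class I interferon-stimulated response element, AGTTTCACTTCT as H2-K1 has it, in H2-K1, H2-D1 and H2-Q7, and the shorter interferon-stimulated response element GAAANNGAAA, read on either strand, in B2m and H2-T23. Each sequence is written 5′ to 3′ on the strand of its gene.
H2-K1: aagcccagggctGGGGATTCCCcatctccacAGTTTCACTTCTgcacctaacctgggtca
H2-D1: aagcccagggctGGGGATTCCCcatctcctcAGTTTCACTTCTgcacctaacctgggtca
H2-Q7: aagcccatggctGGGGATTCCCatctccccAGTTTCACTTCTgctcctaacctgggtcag
B2m: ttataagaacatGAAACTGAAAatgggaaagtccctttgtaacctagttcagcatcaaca
H2-T23: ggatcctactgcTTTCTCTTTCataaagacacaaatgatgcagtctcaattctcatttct

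These windows lie at chr17:34000411-34000470 (minus strand) for H2-K1, chr17:35262911-35262970 (plus) for H2-D1, chr17:35439010-35439069 (plus) for H2-Q7, chr2:122147536-122147595 (plus) for B2m and chr17:36032778-36032837 (minus) for H2-T23. The windows of H2-K1 and H2-D1 are identical at 59 of 60 bases. The motifs were picked after the promoters had been read. Among 32851 promoters of the same length, searched on both strands, enhancer A is found in 0.107% and the class I element in 0.0335%, whereas GAAANNGAAA is found in 3.44%. The gamma-activated site, TTCNNNGAA, was matched in 8.3% of promoters and, among the members, in Psmb8, and the CCAAT box in 37.4%. Matches are a description of the letters, not of binding.

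Levels between genes were compared per length, as FPKM (expected counts scaled to the deposited effective length of the gene and to the library's protein-coding total, computed here), over all 10 libraries. H2-K1 stood highest among the members with a median of 218 FPKM (57.4 to 366), followed by Tapbp at 123 FPKM (57 to 231). B2m had a median of 40.8 FPKM (12.2 to 54.8), H2-D1 33.3 (17.8 to 66.5) and H2-T23 23.6 FPKM (11.7 to 46.2), and the ranges of these neighbours overlap. The transporter subunits lay far lower, with Tap2 at a median of 4.43 FPKM (1.3 to 8.31) and Tap1 at 3.29 FPKM (1.61 to 6.98). H2-Q7 had a median of 3.26 FPKM and ranged from 0 to 16.4. The ranges of these 3 genes overlap. Psmb9 at 1.84 FPKM (0 to 6.28) and Psmb8 at 0.975 FPKM (0 to 3.85) were the lowest, and had 66 and 41 counts in all 10 libraries together. This order of medians does not hold in every group. In DMSO d5 alone H2-Q7 was lowest, at a mean of 0.0343 FPKM against 1.22 for Psmb9 and 1.35 for Psmb8. Tapbp exceeded H2-K1 in DMSO d5 replicates 2 and 3 and in the library labelled DMSO d10 replicate 1. In mean FPKM, H2-K1 exceeded 98.1% of protein-coding genes, B2m 88.4%, Tap1 56.8% and Psmb8 47.3%.

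**Figure D1:**
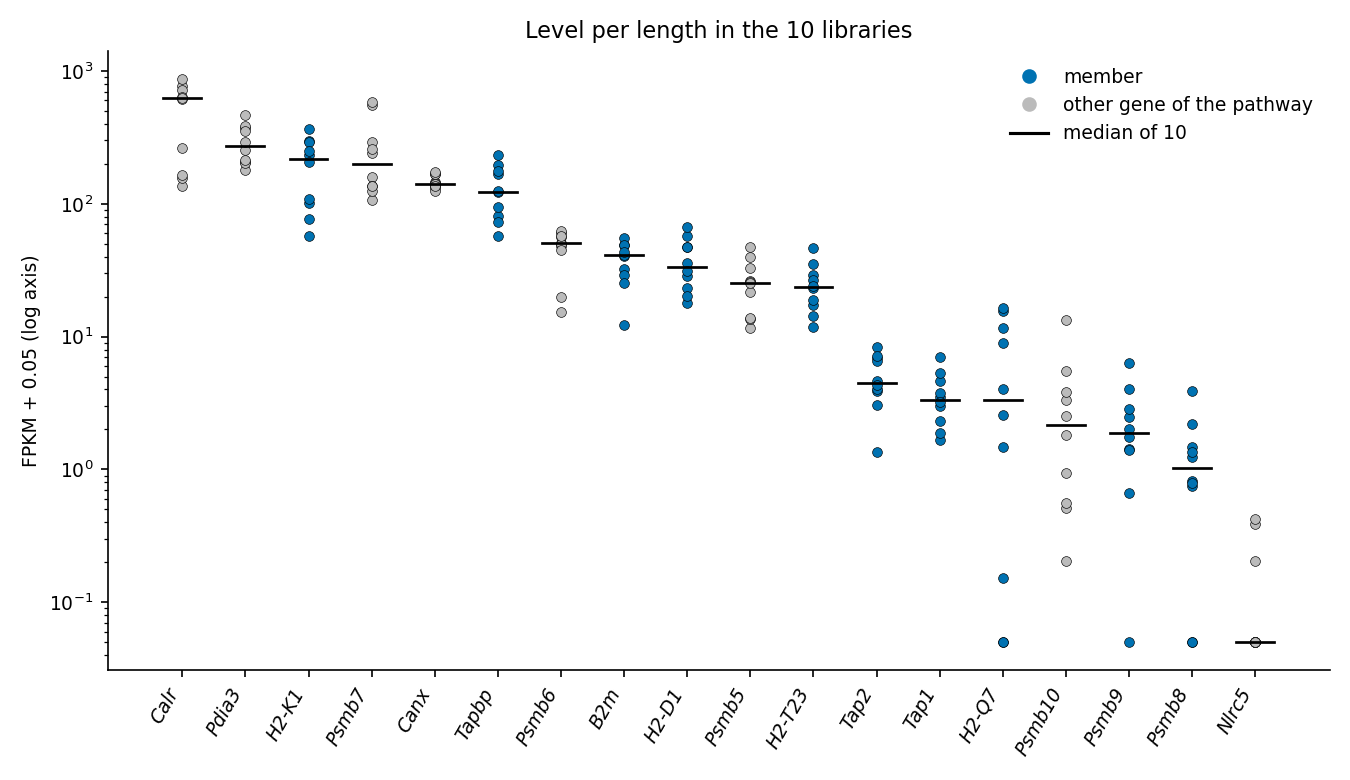
Level per length (FPKM + 0.05, log axis) of the members, in blue, and of other genes of the pathway, in grey, with 1 point for each of the 10 libraries and a bar at the median, ordered by median. H2-K1 and Tapbp stand among the abundant genes at medians of 218 and 123 FPKM, and Psmb8 is the lowest member at 0.975 FPKM.

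Proteasome subunits were set beside the constitutive subunits they replace. Psmb5, Psmb6 and Psmb7 exceeded Psmb8, Psmb9 and Psmb10 respectively in 10 of 10 libraries. In mean FPKM Psmb5 was 21.2 times Psmb8, Psmb6 was 20.6 times Psmb9 and Psmb7 was 80.4 times Psmb10. The coactivator Nlrc5 had at most 3 counts in any library and 0 in 7 of 10. Of the chaperones that fold and load class I molecules, Calr (calreticulin) had a median of 622 FPKM, Pdia3 (ERp57) 273 and Canx (calnexin) 141 FPKM.

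H2-K1 encodes a classical heavy chain, expressed by most nucleated cells. In the DMSO d5 libraries it lay at 107, 61.7 and 114 CPM, and in the libraries labelled TRULI d5 replicates 1 to 3 at 486, 442 and 228 CPM. The libraries labelled DMSO d10 held 72.3 and 235 CPM and the TRULI d10 libraries 376 and 357 CPM. The 3 DMSO d5 libraries and the library labelled DMSO d10 replicate 1 are low, and no TRULI-labelled library overlaps the DMSO-labelled libraries of the same day. The group means were 94.1 ± 28.3 (SD, n = 3) in DMSO d5 and 385 ± 138 CPM (SD, n = 3) in the libraries labelled TRULI d5. By deposited name the order is another. The 3 TRULI d5 libraries then hold 228, 72.3 and 235 CPM and overlap DMSO d5, and the DMSO d10 libraries hold 486 and 442 CPM, above both TRULI d10 libraries. Paired by the names' replicate numbers, each TRULI d5 library lay above its DMSO d5 library, at 228 against 107, 72.3 against 61.7 and 235 against 114 CPM. At 5 days by deposited name, H2-K1 was not called in the fit with a replicate block.

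The other classical chain, H2-D1, whose promoter window differs from that of H2-K1 at a single base, did not move with it. It lay at 48.7, 46.6 and 64.2 CPM in DMSO d5 and at 42.3, 36.3 and 31.4 CPM in the libraries labelled TRULI d5, so that all 3 of these were below the DMSO d5 libraries. The libraries labelled DMSO d10 held 32.5 and 81.6 CPM and the TRULI d10 libraries 94.2 and 36.5 CPM, and these overlap. H2-K1 counts were 1.32 to 2.2 times those of H2-D1 in DMSO d5 and 7.27 to 12.2 times in the libraries labelled TRULI d5. They were 2.23 and 2.88 times in the libraries labelled DMSO d10 and 3.99 and 9.79 times in TRULI d10. By deposited name H2-D1 lay at 31.4 to 81.6 CPM in TRULI d5, which overlaps DMSO d5, and the ratio of H2-K1 to H2-D1 was 7.27, 2.23 and 2.88 in TRULI d5 and 11.5 and 12.2 in DMSO d10.

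H2-Q7 encodes Qa-2, a nonclassical chain that can be anchored by a lipid or secreted. Among the 10 members only H2-Q7 went from at most 1 count in DMSO d5 to at least 49 in the libraries labelled TRULI d5. It had 0, 1 and 0 counts in the DMSO d5 libraries and 58, 49 and 57.6 in those labelled TRULI d5, or 9.25, 18 and 14.9 CPM. The libraries labelled DMSO d10 had 4 and 16 counts and the TRULI d10 libraries 13 and 71.8, or 0.955 and 3.64 against 2.36 and 15 CPM. Over the summed counts, H2-Q7 was 125 times higher in the libraries labelled TRULI d5 than in DMSO d5 (95% exact interval 22.1 to 4959, counting error only, from 165 against 1 count). It was 60.9 times higher in the libraries named TRULI d5 (10.6 to 2436) and 80.4 times higher in TRULI d10 (14 to 3212), each against the same 1 count. The last 2 ratios rest mainly on 1 library each, and were 22.7 (3.63 to 941) without the library named TRULI d5 replicate 1 and 23 (3.45 to 977) without TRULI d10 replicate 2, while without TRULI d10 replicate 1 the ratio was 146 (25.4 to 5861). H2-Q7 was chosen with these counts in view, so the ratios and intervals describe the counts and are read as no support. Reads of H2-Q7 can be shared with its neighbours. Of all 75-base stretches of its transcripts, 17% also occur in another gene, most often H2-Q10, and 5.9% of its 150-base stretches do. H2-Q10, named here after its values were seen, was at 13.1 and 5.68 CPM in 2 of the 3 libraries named TRULI d5 and at no more than 0.417 CPM in the other 8 libraries. For H2-K1, H2-D1 and H2-T23 the shared part was 3.1%, 5.4% and 5.91% at 75 bases.

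H2-T23 encodes Qa-1, a chain with little variation that presents leader peptides of other class I molecules. Against DMSO d5 it lay on the other side from H2-K1, whereas after withdrawal both were higher in TRULI d10 by sample label and both lower by deposited name. Its level was highest in DMSO d5, at 41.7, 36 and 47.4 CPM, and lay at 32.6, 32.2 and 24.7 CPM in the libraries labelled TRULI d5. The libraries labelled DMSO d10 held 10.5 and 18 CPM and the TRULI d10 libraries 22.3 and 18.8 CPM. Every other library lay below the 3 DMSO d5 libraries, under either grouping. The summed supporting-cell markers were separated in the same way, and the share of all genes separated so was not counted.

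The make-up of the class I heavy chains, counted here over 17 genes, differed between the libraries. H2-K1 gave 34.6% to 44.7% of heavy chain counts in DMSO d5, 61% to 75.2% in the libraries labelled TRULI d5, 51.4% and 60.2% in those labelled DMSO d10 and 67.9% and 75.1% in TRULI d10. H2-T23 gave 17.4% to 20.2% in DMSO d5 and 3.94% to 7.46% in the other 7 libraries. By deposited name the H2-K1 share was 51.4% to 61% in TRULI d5 and 65.6% and 75.2% in DMSO d10, so that in neither grouping does the DMSO d5 range meet that of another group. Summed over the 17 genes, the heavy chains lay at 178 to 256 CPM in DMSO d5, 374 to 673 in the libraries labelled TRULI d5, 141 and 390 in those labelled DMSO d10 and 476 to 553 CPM in TRULI d10. By deposited name TRULI d5, at 141 to 390 CPM, overlaps DMSO d5, and DMSO d10, at 645 to 673 CPM, lies above TRULI d10.

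**Figure D2:**
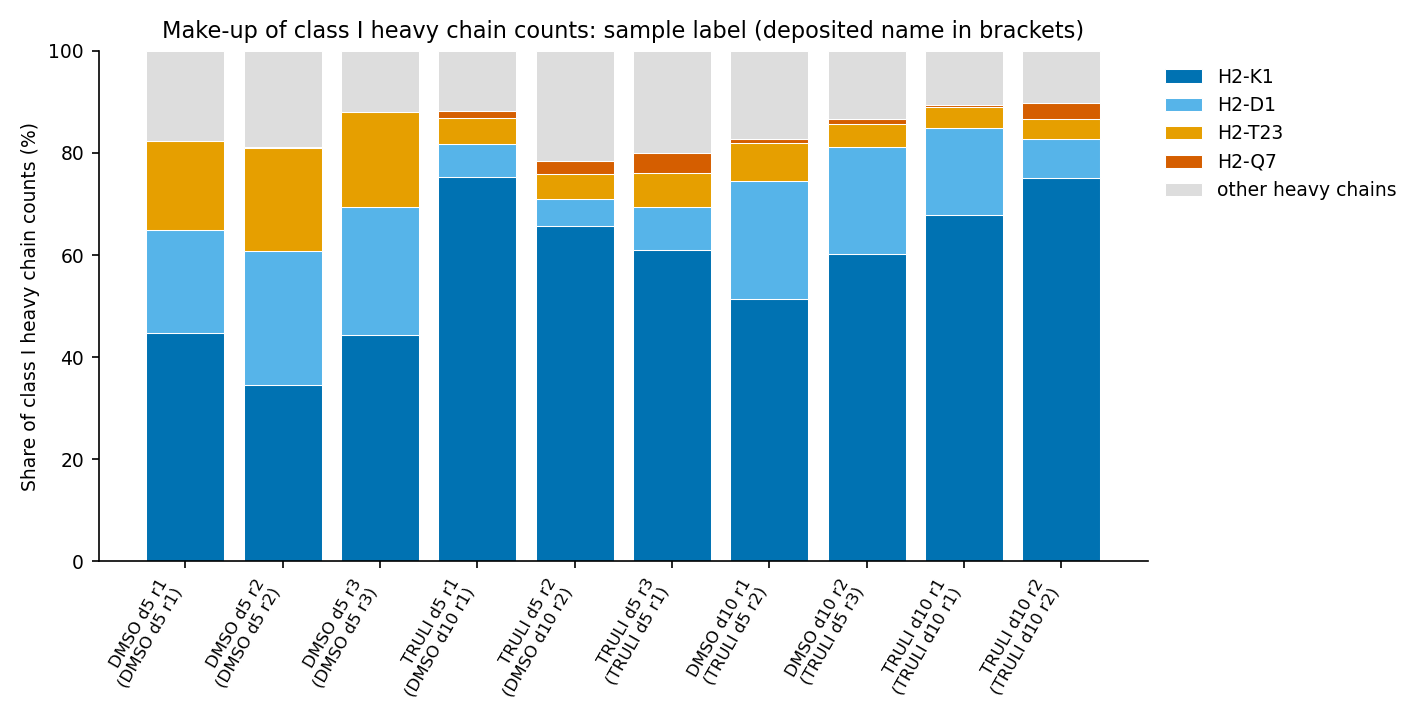
Share of class I heavy chain counts (%) taken by H2-K1, H2-D1, H2-T23, H2-Q7 and the other heavy chain genes in each library, with the deposited name in brackets under the sample label. H2-K1 takes 34.6% to 44.7% in the 3 DMSO d5 libraries and 51.4% to 75.2% in the other 7.

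B2m encodes the light chain that pairs with all of these, and its level overlapped between the groups at 5 days. It lay at 15.8, 24.4 and 19.5 CPM in DMSO d5 and at 17.4, 17.2 and 24.9 CPM in the libraries labelled TRULI d5. The libraries labelled DMSO d10 held 21 and 20.9 CPM, whereas the TRULI d10 libraries lay apart at 7.26 and 28.4 CPM, below and above all other libraries. B2m had 40 to 136 counts per library, and changes smaller than this spread between libraries were not detectable here.

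Tapbp encodes the transporter's link to the heavy chain. DMSO d5 libraries held 102, 161 and 240 CPM, and the libraries labelled TRULI d5 473, 651 and 124 CPM, so that replicate 3 stayed within the DMSO d5 range. The libraries labelled DMSO d10 lay at 172 and 340 CPM and TRULI d10 at 301 and 477 CPM. The libraries deposited as DMSO d10 hold 473 and 651 CPM, and neither they nor TRULI d10 overlap DMSO d5. Tap1 lay between 3.75 and 9.79 CPM and Tap2 between 3.66 and 14.8 CPM, on 14 to 41 and 10 to 92 counts per library. For Tap1, DMSO d5 held 8.89, 6.75 and 5.68 CPM and the libraries labelled TRULI d5 3.99, 5.13 and 6.94 CPM, and the groups overlap. Psmb8 ranged from 0 to 2.04 CPM and Psmb9 from 0 to 2.95 CPM, on at most 9 and 18 counts per library. Over summed counts the ratio of TRULI d5 to DMSO d5 for Psmb8 was 0.825 by sample label (95% exact interval 0.333 to 2.06) and 1.06 by deposited name (0.457 to 2.56), so that no difference was detectable at this depth. For Psmb9 the same ratio was 2.46 (1.08 to 6.28) by sample label and 1.76 (0.727 to 4.67) by deposited name, and these intervals cover counting error only.

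**Figure D3:**
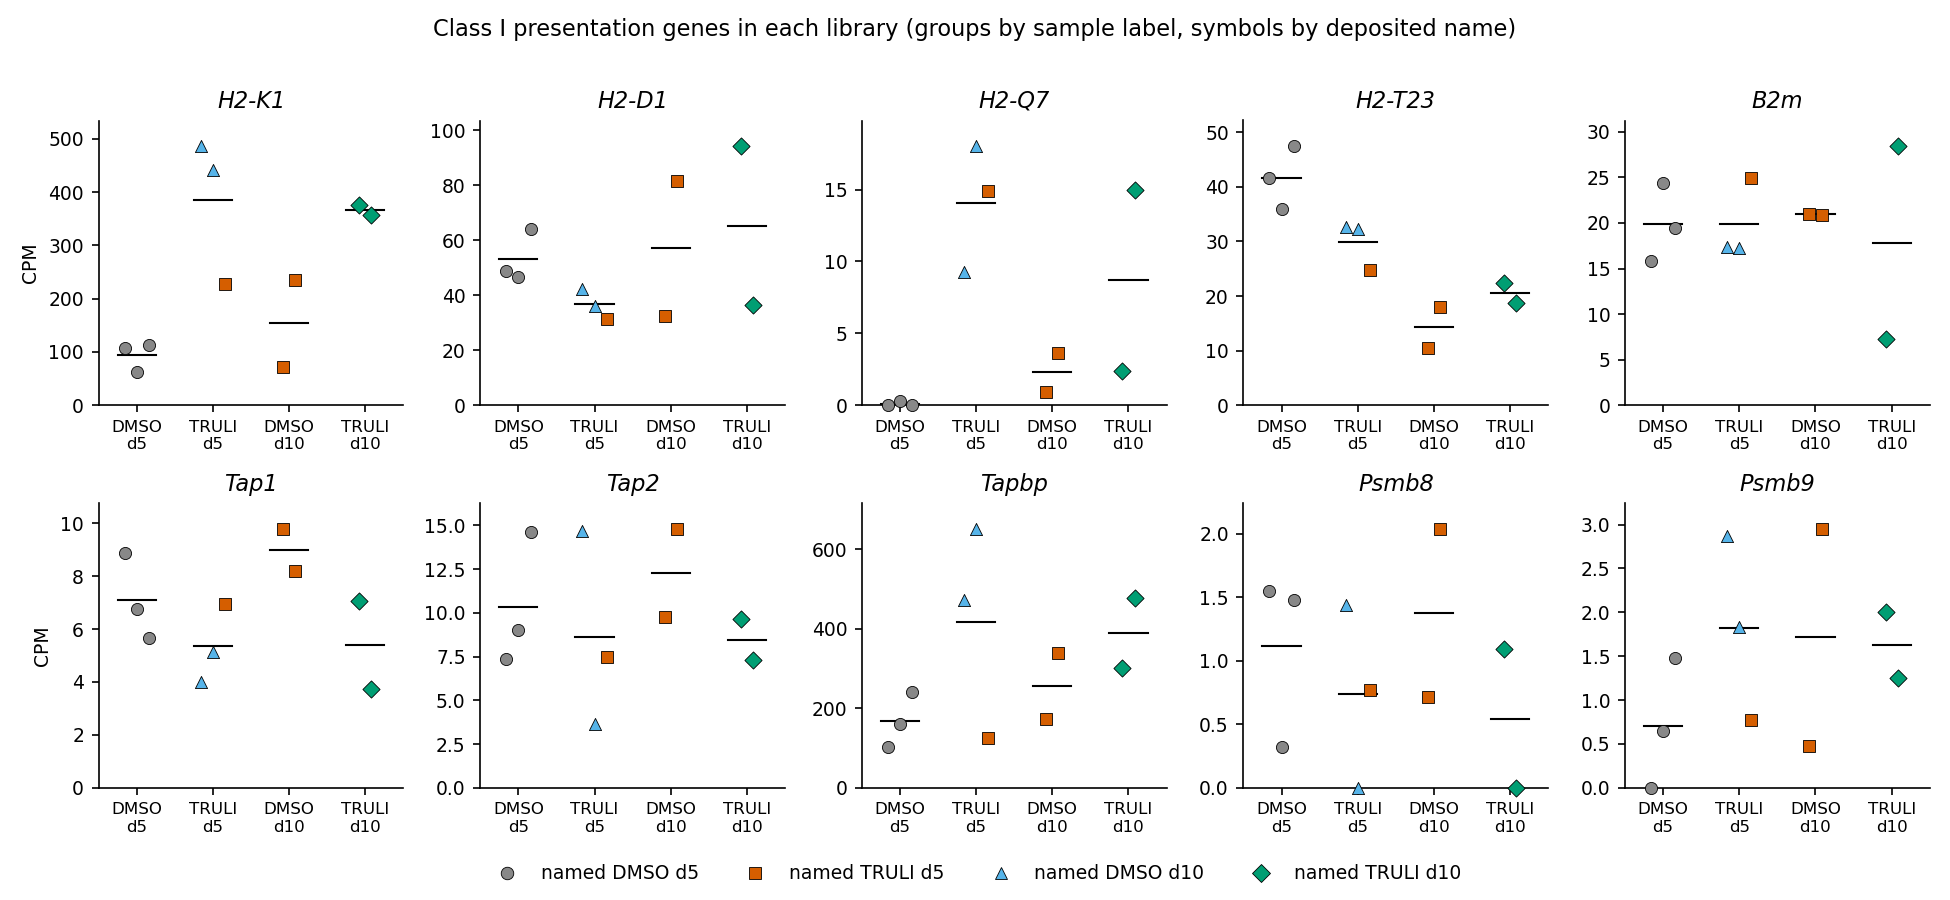
CPM of each member in every library, grouped on the horizontal axis by sample label, with colour and shape giving the deposited name and a bar at the group mean. H2-K1 lies at 61.7 to 114 CPM in DMSO d5 and at 228 to 486 CPM in the libraries labelled TRULI d5, while B2m overlaps between them.

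The first comparison asked whether 5 days of TRULI changed these genes, with 3 libraries labelled TRULI d5 against 3 labelled DMSO d5. A gene was called where edgeR (quasi-likelihood test, Benjamini-Hochberg over every tested gene) gave an adjusted p under 0.05 and the size of its log2 fold change exceeded 1. Of the 8 members that passed the filter on low counts, 0 were called, where the background was 0.00903% of 11071 genes called higher and 0% called lower. At this setting 1515 genes had an unadjusted p under 0.05, and DESeq2 called 218 genes higher and 67 lower, 1 of them a member, H2-K1. The fitted log2 fold change was 2.00 (SE 0.41) for H2-K1, 6.67 (SE 1.0) for H2-Q7 and 1.28 (SE 0.58) for Tapbp. H2-D1 was at -0.56 (SE 0.33), H2-T23 at -0.50 (SE 0.33) and B2m at -0.02 (SE 0.40). Tap1 and Tap2 were at -0.42 (SE 0.58) and -0.27 (SE 0.62). The fitted values for H2-Q7 against DMSO d5, here and in the other comparisons, rest on 1 control count and depend on the prior count of the fit. Against DMSO d5 it passes the filter on low counts only through the libraries in which it is high, so that its calls are read as no support. H2-K1 and H2-Q7 were separated upward and H2-D1 and H2-T23 downward, 2 and 2 of 8, where 8.54% and 9.57% of all tested genes were separated in each direction. The median over the 8 members was -0.141 and over all genes 0.046. Since the members were chosen with these values known, nothing is read from these counts. Without the library labelled TRULI d5 replicate 3, which alone of its group has a high share of mt-Rnr2, 3 members were called, H2-K1 at 2.23 (SE 0.32), H2-Q7 at 6.57 (SE 1.03) and Tapbp at 1.68 (SE 0.36), while 1215 of 11382 genes were called higher and 923 lower. By deposited name the TRULI-labelled libraries left in this fit are DMSO d10. It then sets DMSO d10 against DMSO d5 and holds no TRULI library. A further fit held only the libraries whose label and name give 1 condition, 1 TRULI against 3 DMSO. In it H2-Q7 was at 6.75 (SE 1.07), H2-K1 at 1.28 (SE 0.36) and Tapbp at -0.42 (SE 0.44). The 1 TRULI library was assumed to vary like the DMSO d5 libraries, so no call is read from this fit.

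By deposited name the same question is put to the 3 libraries named TRULI d5, against the same DMSO d5 libraries. Of 7 members tested 0 were called by edgeR, beside 2.05% of 11529 genes called higher and 1.02% called lower, with 1887 genes at an unadjusted p under 0.05. DESeq2 called 388 genes higher and 195 lower, 1 of them a member, H2-T23, at -1.24 (SE 0.36). H2-K1 was at 0.93 (SE 0.40), Tapbp at 0.35 (SE 0.38) and B2m at 0.18 (SE 0.28). H2-T23 was at -1.22 (SE 0.32) and was the only tested member whose libraries were separated, 10.5 to 24.7 against 36 to 47.4 CPM, where 10.8% of genes were separated downward and 10.5% upward. The replicate numbers of the deposited names pair these libraries, and in a fit with a replicate block H2-T23 was called lower at -1.28 (SE 0.26), the 1 member called, with 473 of 11529 genes called higher and 225 lower. H2-T23 was also called without TRULI d5 replicate 1 by name, at -1.55 (SE 0.34), with 236 of 12017 genes called higher and 57 lower. H2-Q7 failed the filter on low counts here. Where it was tested it was called in some settings (without TRULI d5 replicate 2 by name, at 6.08, SE 1.13) and not in others (the fit over all 10 libraries, at 5.61, SE 1.42).

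After withdrawal, 2 libraries labelled TRULI d10 were compared with 2 labelled DMSO d10, to ask what remained 5 days after the compound was removed. Of 8 members tested 0 were called by edgeR, beside 1% of 12242 genes called higher and 1.06% called lower, with 3001 genes at an unadjusted p under 0.05. DESeq2 called 855 genes higher and 621 lower, 0 of them members. H2-K1 was at 1.20 (SE 0.53), H2-Q7 at 1.85 (SE 1.12), Tapbp at 0.55 (SE 0.43) and H2-T23 at 0.47 (SE 0.56). Tap1 was at -0.79 (SE 0.73), Tap2 at -0.59 (SE 0.63) and B2m at -0.29 (SE 0.70). With a replicate block, in libraries that share only a number, H2-K1 was called at 1.42 (SE 0.43), beside 725 of 12242 genes higher and 544 lower. Without the filter on low counts it was called at 1.23 (SE 0.41), beside 1050 of 19310 genes higher and 701 lower. H2-K1 and H2-T23 were separated upward and Tap1 and Tap2 downward, 2 and 2 of 8, in a comparison of 2 against 2 where 29.1% and 28.6% of all genes were separated in these directions. Without TRULI d10 replicate 1, H2-K1 was at 1.16 (SE 0.44) and H2-Q7 at 2.63 (SE 0.87). The remaining TRULI library was assumed to vary like the controls, so no call is read from this fit. By sample label the H2-Q7 ratio over summed counts was 3.54 (exact interval 2.16 to 6.09, counting error only). It was 6.45 (3.89 to 11.2) without TRULI d10 replicate 1 but 1.01 (0.463 to 2.14) without replicate 2. The higher H2-Q7 in TRULI d10 by sample label thus rests on replicate 2. By deposited name, the DMSO d10 libraries being those labelled TRULI d5 replicates 1 and 2, the sign of H2-K1 turned, to -0.35 (SE 0.34). In that grouping 0 of 9 members were called by edgeR, as were 0% of 11568 genes in either direction, with 532 genes at an unadjusted p under 0.05 and 42 higher and 7 lower calls by DESeq2, 0 of them members. H2-D1 was at 0.73 (SE 0.59), H2-Q7 at -0.66 (SE 0.97), H2-T23 at -0.66 (SE 0.58) and Tapbp at -0.54 (SE 0.38). Over summed counts the H2-Q7 ratio was 0.693 (0.515 to 0.93), and its direction turned with 1 library. It was 1.26 (0.923 to 1.72) without TRULI d10 replicate 1 and 0.198 (0.102 to 0.354) without replicate 2. H2-K1 and H2-T23 were separated downward, 2 of 9, and 0 upward, beside 13.3% and 15.4% of all genes.

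The labels and the names give the TRULI d10 and DMSO d5 libraries the same condition, so these 5 libraries were also compared, although treatment and time differ together and cannot be told apart. Of 7 members tested 1 was called, H2-K1, higher at 1.88 (SE 0.31), where 11% of 11760 genes were called higher and 8.55% lower. Tapbp was at 1.14 (SE 0.37), H2-T23 at -1.10 (SE 0.35), B2m at -0.24 (SE 0.58) and H2-D1 at 0.21 (SE 0.41), none of them called. DESeq2 called 3 members, H2-K1 at 1.90 (SE 0.34), Tapbp at 1.16 (SE 0.41) and H2-T23 at -1.08 (SE 0.38), beside 1540 genes higher and 1329 lower. H2-K1 and Tapbp were separated upward and H2-T23 downward, 2 and 1 of 7, beside 28.1% and 24.8% of all genes. H2-K1 was called with each DMSO d5 library left out in turn, at 1.68 to 2.06, but not when all 10 libraries shared 1 fit. Without TRULI d10 replicate 1, H2-K1 was at 1.91 (SE 0.36), H2-Q7 at 6.76 (SE 1.05), H2-T23 at -1.17 (SE 0.39) and Tapbp at 1.49 (SE 0.40). Without TRULI d10 replicate 2, H2-K1 was at 1.89 (SE 0.35) and B2m at -1.56 (SE 0.52). In both fits the remaining TRULI library was assumed to vary like the DMSO d5 libraries, so no call is read from them. With all 5 libraries the summed heavy chains were at 1.11 (SE 0.26). The macrophage and leukocyte list summed to 46.7 to 48.1 CPM in TRULI d10 and 3.71 to 9.64 CPM in DMSO d5, with Ptprc at no more than 0.733 CPM and 7 of its 15 genes at 0 in all libraries, and the share of mt-Rnr2 also differed. The part of either in the result was not tested. All comparisons at 5 days and this one share the 3 DMSO d5 libraries.

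**Figure D4:**
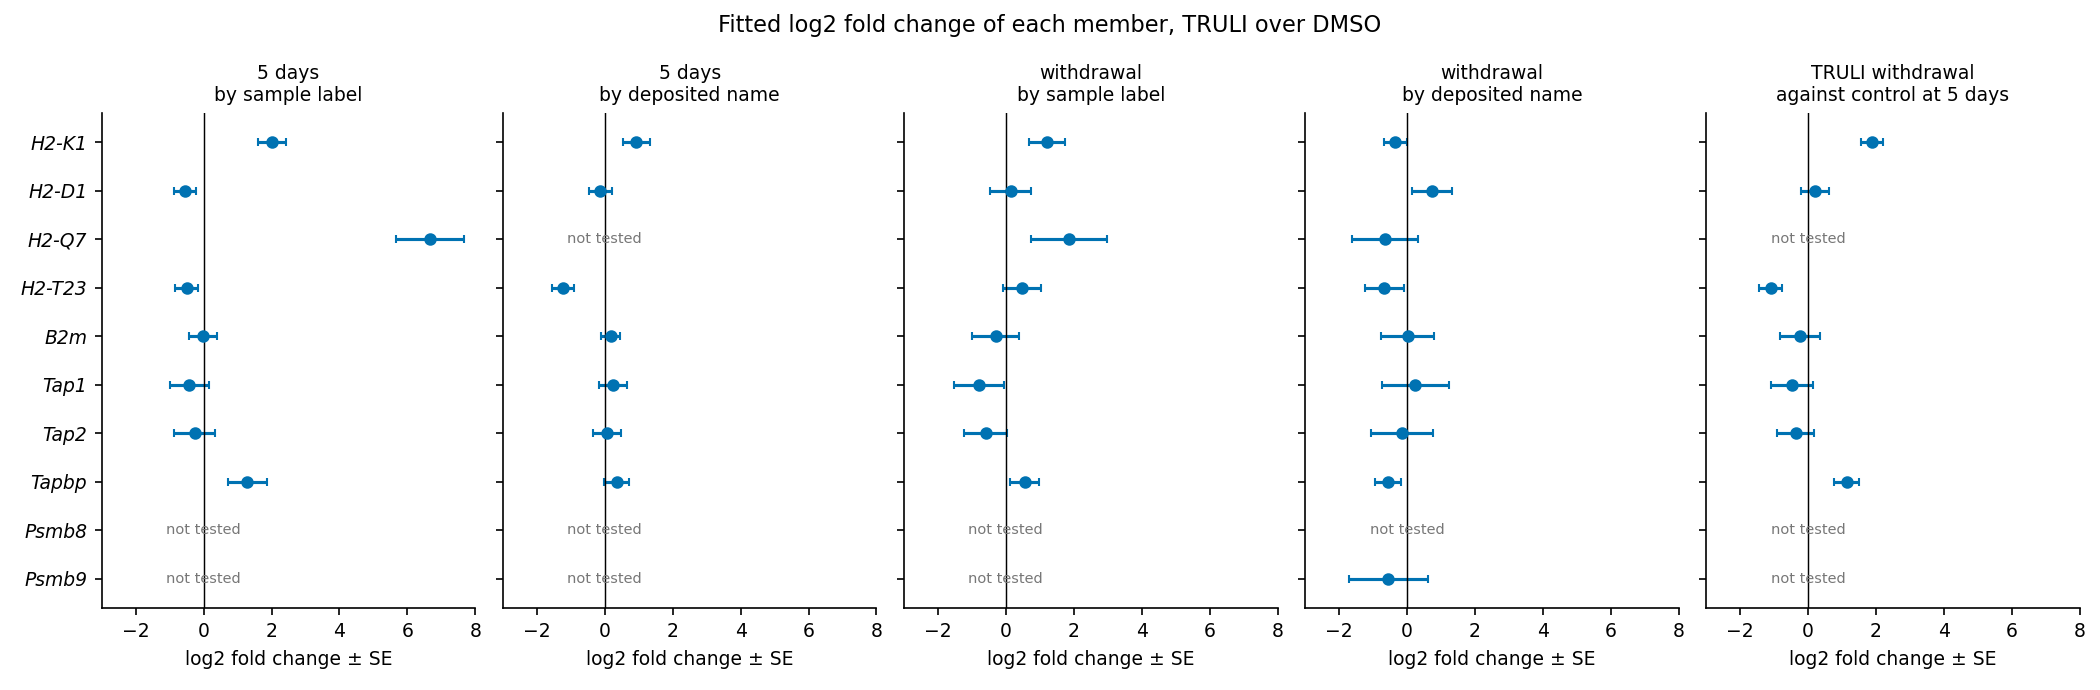
Fitted log2 fold change with its standard error for each member in the 5 comparisons, the TRULI group over the DMSO group, with "not tested" where the filter on low counts removed the gene. H2-K1 is at 2.00 at 5 days by sample label and at -0.35 after withdrawal by deposited name, and B2m stays between -0.29 and 0.18.

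The level of H2-K1 followed the split in mt-Rnr2. In the 4 libraries with a low share it lay at 357 to 486 CPM and in the other 6 at 61.7 to 235 CPM, with no overlap. By deposited name these are the 4 d10 and the 6 d5 libraries, a comparison chosen after the data were seen, in which 13.6% of 12792 genes were separated upward and 10.2% downward. The summed heavy chains were separated likewise, at 476 to 673 against 141 to 390 CPM. The other 9 members overlapped between the 2 sets. Tapbp lay at 301 to 651 CPM in the 4 libraries and at 102 to 340 CPM in the other 6, and B2m at 7.26 to 28.4 against 15.8 to 24.9 CPM. Within the 6 libraries high in mt-Rnr2, H2-K1 was at 61.7 to 114 CPM in DMSO d5 and at 72.3, 228 and 235 CPM in those named TRULI d5. By sample label the libraries at 72.3 and 235 CPM are DMSO d10. What part the mt-Rnr2 share has in these levels was not tested.

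**Figure D5:**
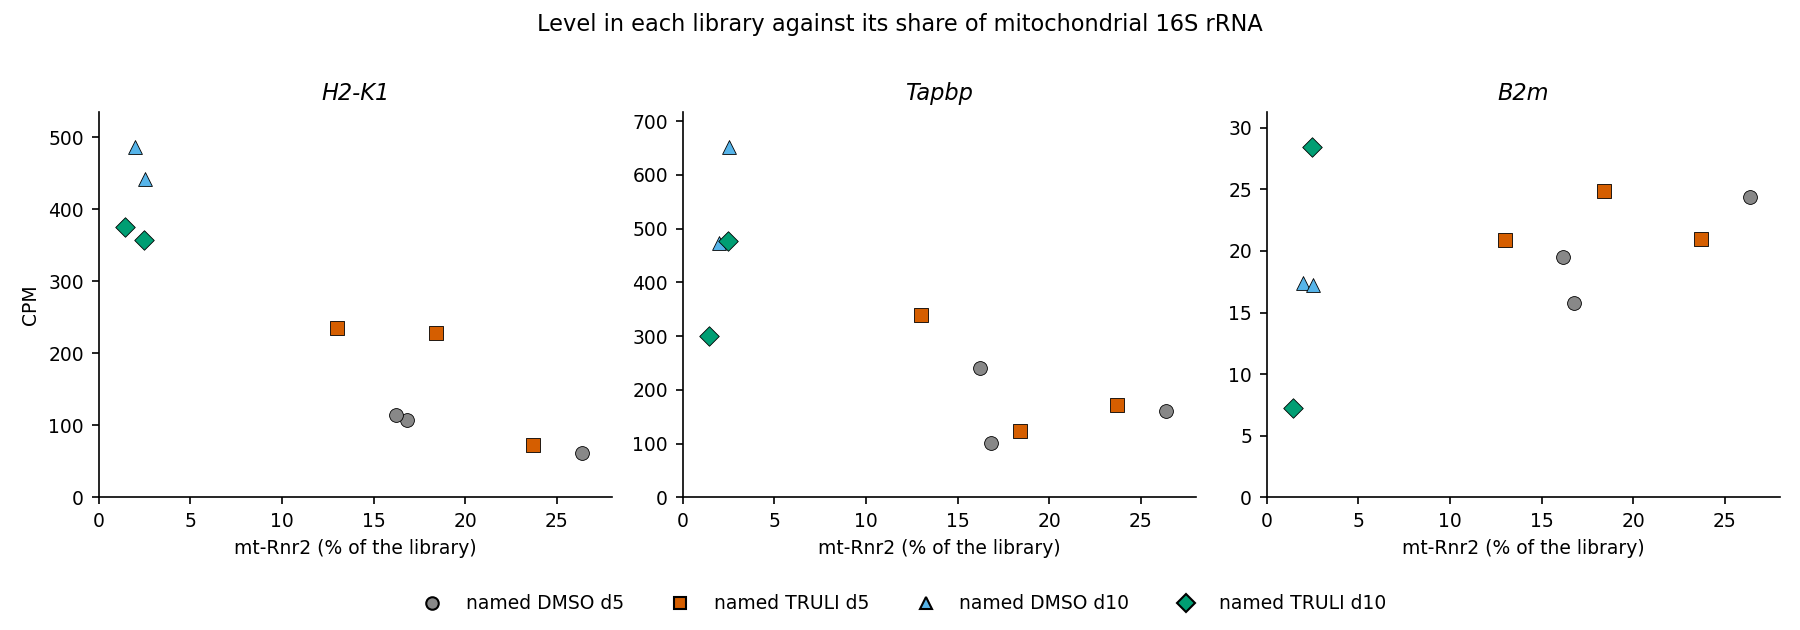
CPM of H2-K1, Tapbp and B2m in each library (vertical axis) against the percentage of its counts taken by mt-Rnr2 (horizontal axis), with colour and shape giving the deposited name. The 4 libraries at 1.45% to 2.53% hold H2-K1 at 357 to 486 CPM, the other 6 at 61.7 to 235 CPM, and B2m shows no such gap.

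The members did not vary as a block. Over 45 pairs of members, Pearson's r of log2(CPM + 1) across the 10 libraries had a median of -0.04, with 25 pairs below 0 and 7 above 0.5. The highest were H2-K1 with H2-Q7 at 0.81 and Tapbp with Psmb9 at 0.80, and the lowest Tap1 with Tapbp at -0.71. The 10 points share libraries, depth and group, and these values are a description. Among 9890 other protein-coding genes with a mean of at least 5 CPM, the profiles most like that of B2m were Gmds (r = 0.937), Rhot2 (0.920), Ap5s1 (0.903), Ppic (0.902) and Aspscr1 (0.899), each over 10 libraries. Those most like the mean of the members' standardised levels were Ghr (0.922), Gdap2 (0.861), Tcte2 (0.844), Prr12 (0.841) and Phf2 (0.835).

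A further 65 genes of the pathway were counted by list, none of them a member. At 5 days by sample label 39 were tested and 0 called by edgeR, with 6 at an unadjusted p under 0.05 and a median log2 fold change of -0.07. DESeq2 called 1, the heavy chain gene H2-Q2. It had 19, 3 and 2 counts in DMSO d5 and 4 and 16 in the libraries labelled DMSO d10. By sample label it passes the filter on low counts only through the libraries in which it is high. Its calls, here and after withdrawal, are therefore read as no support. Without the library labelled TRULI d5 replicate 3, 9 of 43 were called, 6 higher and 3 lower, where 1215 of 11382 genes were called higher and 923 lower. By deposited name that fit sets DMSO d10 against DMSO d5. H2-Q2, named here after its values were seen, lay at 7.34, 0.964 and 0.494 CPM in DMSO d5, at 27.9, 94.2 and 18.8 CPM in the libraries labelled TRULI d5, at 0.955 and 3.64 CPM in those labelled DMSO d10 and at 11.2 and 24.2 CPM in TRULI d10. Each TRULI-labelled library is above every DMSO-labelled one. By deposited name TRULI d5, at 0.955 to 18.8 CPM, overlaps DMSO d5, and the DMSO d10 libraries, at 27.9 and 94.2 CPM, lie above TRULI d10. By deposited name 41 were tested and 1 called higher, beside 2.05% of 11529 genes called higher. The called gene was Ifit2, an interferon-induced protein that binds RNA. It had 3, 0 and 1 counts in DMSO d5 and passed the filter on low counts only through the libraries named TRULI d5, with 39, 47 and 73 counts, so that its fold and p are not given and the call is read as no support. Ifit2 lay at 1.16, 0 and 0.247 CPM in DMSO d5 whereas the libraries named TRULI d5 held 10, 11.2 and 16.6 CPM, with no overlap. By sample label the highest values, 11.2 and 16.6 CPM, belong to DMSO d10, and the libraries labelled TRULI d5 held 2.07, 1.47 and 10 CPM. It was not called without DMSO d5 replicate 2, and in TRULI d10 it lay at 7.08 and 0.209 CPM. Apart from Ifit2 and Ifi35, the filter on low counts removed the other 10 of 12 interferon-inducible genes. After withdrawal 0 of 43 tested genes were called by edgeR in either grouping, with 6 by sample label and 1 by deposited name at an unadjusted p under 0.05, while DESeq2 called 4 by sample label (H2-Q2, Calr, Psmb7 and Irf9), beside 855 of 12242 genes higher and 621 lower, and 0 by deposited name.

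In the TRULI d10 libraries against DMSO d5, 5 of 42 tested pathway genes were called, 3 higher and 2 lower, beside the 11% and 8.55% of all genes given above. When all 10 libraries shared 1 fit, 0 of 49 tested pathway genes were called, beside 9 of 12841 genes higher and 3 lower. Of the 5 called genes, 4 are described here. Irf9, a transcription factor of the interferon response, rose by 1.63 (SE 0.26, edgeR adjusted p = 0.00836), from 58, 61.1 and 64 CPM to 181 and 217 CPM. Psmb7, a constitutive proteasome subunit, rose by 1.95 (SE 0.39, edgeR adjusted p = 0.0143), from 76.9, 116 and 96.6 to 225 and 559 CPM. Ifnar2, a chain of the type I interferon receptor, fell by 2.13 (SE 0.35, edgeR adjusted p = 0.00867), from 46, 47.6 and 49.2 to 11.6 and 11.3 CPM. Calr fell by 1.53 (SE 0.28, edgeR adjusted p = 0.0113), from 841, 677 and 944 to 274 and 327 CPM. The values of Irf9 and Calr in the libraries labelled TRULI d5 replicates 1 and 2 lay with those of TRULI d10, at 165 and 267 CPM for Irf9 and 351 and 269 CPM for Calr, and in replicate 3 with DMSO d5, at 57.1 and 714 CPM. Psmb7 lay likewise, at 261, 562 and 84 CPM in replicates 1 to 3. Ifnar2 did not, at 32.6, 11 and 18.5 CPM, all below DMSO d5. The libraries labelled DMSO d10, named TRULI d5, held 45.6 and 62 CPM of Irf9 and 624 and 703 CPM of Calr. They held 88.3 and 182 CPM of Psmb7 and 31.3 and 25.7 CPM of Ifnar2. By deposited name replicates 1 and 2 above are DMSO d10. In that grouping DMSO d10 lay with TRULI d10 for Irf9, Calr and Psmb7, apart from the libraries named d5. The number of pathway genes called was 1 without DMSO d5 replicate 2 and 3 without DMSO d5 replicate 3, settings in which the calls over all genes also fell, to 238 higher and 117 lower and to 507 higher and 295 lower.

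Of the other pathway genes, several that act close to the members were not called in any of the 5 comparisons. Among them Irf1, an interferon-induced activator of class I genes, was at -0.39 (SE 0.57) at 5 days by sample label and at -0.23 (SE 0.43) by deposited name. The proteasome activator subunits Psme1 and Psme2 were at 0.04 (SE 0.46) and -0.42 (SE 0.58) by sample label and at -0.34 (SE 0.35) and -0.35 (SE 0.46) by deposited name. Psmb5 was at -0.02 (SE 0.52) and Psmb6 at -0.29 (SE 0.46) by sample label. Psmb10 had 56 counts in all 10 libraries together. Of the 5 comparisons it was tested in 1 only, TRULI d10 against DMSO d5, at -0.39 (SE 0.99).

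Finally, the effect of TRULI after withdrawal was compared with that at 5 days in 1 fit over all 10 libraries. For H2-K1 the difference of the log2 fold changes, withdrawal minus 5 days, was -0.78 (SE 0.70) by sample label and -1.27 (SE 0.59) by deposited name, and for H2-Q7, resting on the same 1 count, -4.83 (SE 1.62) and -6.26 (SE 1.86). Of 12841 genes 0 passed an adjusted p of 0.05 in this edgeR test in either grouping, so that 0 of 9 members and 0 of 49 other pathway genes passed. Over all genes 874 by sample label and 1217 by deposited name had an unadjusted p under 0.05.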

How the data were processed

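Supporting cells sorted from utricles were sequenced as 10 libraries. The library kit is given as QIAseq FX Single Cell in the methods but as TruSeq poly(A) per the labels. The authors aligned reads with STAR to GRCm38 (mm10) and deposited, for each library, a table of expected counts per gene with its length and effective length, in the form RSEM writes. The counting program, its annotation and its use of strand are not given in the sources used here. Of 48709 genes, 48349 were matched to GENCODE M21 by identifier.

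The deposited expected counts were rounded to whole numbers and tested with edgeR 4.0.16 (filterByExpr, TMM, quasi-likelihood, R 4.3.3) over all genes, with only the libraries of each comparison and p-values adjusted by Benjamini-Hochberg. The standard error (SE) beside an edgeR fold change was computed as the size of its log2 fold change over the square root of the quasi-likelihood F. DESeq2 1.42.0 was an alternative, with its own SE. CPM are expected counts over the TMM-normalized library size, and FPKM were computed from the deposited expected counts, the deposited effective lengths and each library's protein-coding total. Tests were checked on simulated counts. No pair of libraries agreed within sampling noise. Groups follow the sample labels, and each comparison was repeated by deposited name.

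Members, gene lists and tests were chosen with earlier results of these data known. Named were all members, the pathway genes called in a comparison (but for 1, whose values are not reported here), a set of regulators and proteasome genes whatever their values, and the 5 protein-coding genes most like B2m and the members' mean. Replicate numbers come from the labels or names. By deposited name at 5 days, same-numbered libraries deviated together (correlations 0.370, 0.197 and 0.303 over 11598 genes), a pairing seen in the data only, and the blocked value is given beside that result. Settings tried were DESeq2, its size factors, no filter, a stricter filter (20 counts), the replicate block, all 10 libraries in 1 fit, library sizes from nuclear protein-coding genes, each library left out, and, chosen after seeing the data, only the libraries whose label and name give the same condition.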

Additional observations from a re-analysis of the deposited data

How the results depend on the processing

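At 5 days by sample label, where 0 members and 0 other pathway genes were called, the counts were 1 and 1 with DESeq2, 2 and 4 without the filter, 1 and 1 with only the libraries of the same condition in label and name, and 0 to 3 and 0 to 9 with each library left out. By deposited name (0 members, 1 pathway gene), they were 1 member with DESeq2, 2 and 2 without the filter, 1 member with the replicate block, 1 member with the libraries of the same condition, 0 pathway genes in the fit over all 10 libraries, and 0 to 1 and 0 to 2 with each library left out. After withdrawal by sample label (0 and 0), they were 4 pathway genes with DESeq2, 1 and 4 without the filter, 1 pathway gene with the stricter filter, 1 and 4 with the replicate block, and 0 to 2 and 0 to 6 with each library left out. By deposited name they were 0 in every setting run. For TRULI d10 against DMSO d5 (1 and 5), they were 3 members with DESeq2, 3 without the filter, 2 with the stricter filter, 2 with the replicate block, 0 and 0 in the fit over all 10 libraries, and 1 to 4 and 1 to 7 with each library left out. The cause was not tested. Counts from fits that leave 1 library in an arm are read as no support. Without the filter more genes are tested. Calls over all genes also changed with the setting. At 5 days by sample label they were 1 higher and 0 lower of 11071, against 218 and 67 with DESeq2, 546 and 100 of 20196 without the filter and 1215 and 923 of 11382 without TRULI d5 replicate 3. By deposited name they were 236 and 118, against 388 and 195 with DESeq2, 651 and 251 without the filter and 67 and 42 in the fit over all 10 libraries. After withdrawal by sample label they were 123 and 130, against 855 and 621 with DESeq2, 1050 and 701 without the filter and 725 and 544 with the replicate block. For TRULI d10 against DMSO d5 they were 1292 and 1005, against 1540 and 1329, 2066 and 1143, and 900 and 696 in the same 3 settings, and 9 and 3 in the fit over all 10 libraries. Outside the pairing by deposited name at 5 days the libraries share only a number. The correlations of same-numbered libraries were -0.152, 0.0668 and -0.189 at 5 days by sample label, where not every library correlated best with its own number, 0.202 and 0.180 after withdrawal by label and by name, and -0.000717 and 0.00253 for TRULI d10 against DMSO d5. The fitted log2 fold changes of the members changed sign in 2 of 64 values at 5 days by sample label, 3 of 56 by deposited name, 0 of 55 and 2 of 62 after withdrawal, and 0 of 49 for TRULI d10 against DMSO d5, besides 5 of 54, 7 of 48, 4 of 36, 6 of 40 and 2 of 40 with each library left out.

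Psmb8, Psmb9 and, in DMSO d5, H2-Q7 are limited by depth. Groups of 2 or 3 libraries, and 4 libraries with conflicting labels, limit every comparison, and where 1 library was left in an arm its spread was taken from the other group. Class I paralogs share sequence, the strain of the mice is not given, and Tap1 and Psmb9 share 212 bases.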
